A study of Rattus norvegicus with 59 samples.

Results

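Srd5a1, Cited2 and Meis3 are 3 genes of the 2887 complete entries in a table of lung FPKM, fragment numbers scaled to transcript length and to the mapped total of a library. They were chosen by their silica and air FPKM, as genes higher in silica lungs than in air lungs of the same time that belonged to no list of immune genes. These values are therefore given as a description with no test. The choice also drew on all 6 times, so the course of the difference with time is a description too. Tests are given for the members only on comparisons that the choice did not make, which are the change with age in air lungs and the variation between rats of a group. The air values used for age did enter the choice, as the level that silica lungs were compared with. The table ends inside an entry and holds mostly genes of chromosome 1, so it may be part of a longer table, and every rank, share and count of listed genes refers to the entries present.

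The rats were male Fischer animals (F344/DuCrl), an inbred strain, 3 months old at purchase. Silica rats inhaled crystalline silica with the whole body exposed, at 15 mg/m3, on 5 days and for 6 h each day, and air rats inhaled air. Lungs were taken at months 1, 3, 6, 9, 12 and 18 after exposure, which gave 6 silica groups of 5 rats each and 6 air groups, of 5 rats each except for 4 in the 9-month air group. Each of the 59 libraries, 30 from silica rats and 29 from air rats, was made from the total RNA of a piece of lung from 1 rat, so every cell type of the lung contributes to each value.

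Srd5a1 encodes steroid 5-alpha-reductase type 1, an enzyme of the endoplasmic reticulum that uses NADPH to reduce the A ring of testosterone, progesterone and glucocorticoids. It makes dihydrotestosterone, the stronger androgen, from testosterone, and it is found in many tissues outside the reproductive tract. Cited2 encodes a nuclear protein that does not bind DNA itself. It binds the coactivators CBP and p300 tightly, at the domain that the hypoxia factor HIF-1alpha also uses, and so limits HIF-1 transcription, and it serves as a coactivator of other factors such as TFAP2. Mice without Cited2 have heart and adrenal defects. Meis3 encodes a homeodomain protein of the TALE class, a partner of PBX and HOX proteins on DNA, known mainly from hindbrain patterning in frog and fish embryos.

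The promoter windows of the 3 genes are shown because the genes were higher together in the same lungs. Each window runs from 250 bases before to 50 bases after a RefSeq transcription start, on the plus strand of the rat assembly GRCr8. This assembly is used for sequence, names and gene order only, because the sources used here do not name the build of the FPKM. In the Srd5a1 window, chr1:35514664-35514963, capitals mark each GC box, GGGCGG on either strand:
Srd5a1: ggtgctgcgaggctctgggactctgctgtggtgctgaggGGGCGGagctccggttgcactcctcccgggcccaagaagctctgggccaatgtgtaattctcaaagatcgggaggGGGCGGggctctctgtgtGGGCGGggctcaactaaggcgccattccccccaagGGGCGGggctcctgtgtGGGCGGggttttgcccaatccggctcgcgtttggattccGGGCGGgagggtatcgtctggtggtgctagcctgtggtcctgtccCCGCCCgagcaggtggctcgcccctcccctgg
In the Cited2 window, chr1:14132053-14132352, capitals mark the hypoxia response core ACGTG, which lies on both strands and overlaps itself as CACGTG:
Cited2: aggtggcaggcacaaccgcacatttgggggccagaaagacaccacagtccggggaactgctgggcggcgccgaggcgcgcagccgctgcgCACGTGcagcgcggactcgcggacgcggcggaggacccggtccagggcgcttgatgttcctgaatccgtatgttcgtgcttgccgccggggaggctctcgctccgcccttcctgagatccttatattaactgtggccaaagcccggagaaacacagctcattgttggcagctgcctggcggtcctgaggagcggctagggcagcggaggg
RefSeq gives Meis3 2 starts. Capitals mark the CCAAT box in its first window, chr1:85989800-85990099, and the G form of the hypoxia core, GCGTG, in its second, chr1:85990091-85990390:
Meis3, first start: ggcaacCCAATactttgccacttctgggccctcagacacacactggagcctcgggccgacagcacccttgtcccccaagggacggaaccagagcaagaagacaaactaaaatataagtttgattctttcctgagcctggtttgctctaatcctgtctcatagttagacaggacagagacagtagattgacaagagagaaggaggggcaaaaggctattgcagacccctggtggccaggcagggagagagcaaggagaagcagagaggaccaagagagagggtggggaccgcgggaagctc
Meis3, second start: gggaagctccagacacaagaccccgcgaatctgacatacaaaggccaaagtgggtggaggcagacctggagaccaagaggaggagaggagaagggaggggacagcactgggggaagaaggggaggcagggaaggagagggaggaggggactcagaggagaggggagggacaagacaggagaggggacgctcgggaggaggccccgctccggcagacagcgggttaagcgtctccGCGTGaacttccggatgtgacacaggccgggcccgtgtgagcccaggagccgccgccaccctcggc

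The Srd5a1 window held 7 GC boxes and was 67.7% G and C. It also held 2 CCAAT boxes and 1 C/EBP core, TTGCNNAA. The Cited2 window was 66.0% G and C and held 2 GC boxes besides the overlapping hypoxia cores, which are 1 stretch of sequence counted once on each strand. The Meis3 windows were 54.0% and 65.7% G and C, with 1 marked motif in each. Over all 33469 rat promoter windows of this length, GGGCGG was present in 33.1%, CCAAT in 37.5%, ACGTG in 19.3%, GCGTG in 29.7% and TTGCNNAA in 10.6%. The AP-1 site TGANTCA, the TATA box TATAAA, the steroid receptor motif AGAACA, the cAMP response motif TGACG, the ETS core GAGGAA and the MEIS core TGACAG were searched on both strands and were not found in any of the 4 windows. No motif searched lay in windows of all 3 genes, and a match describes letters in a window, not a site in use.

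Depth is not given directly by FPKM. From the smallest steps of low values, the relative depth of the libraries ran from 0.436 to 2.26. The lung label fitted the markers that the table holds, since the type 2 cell genes Napsa and Lpcat1 had 71.5 to 191 and 45.1 to 114 FPKM over all libraries. The library of 12-month silica replicate 3 stood apart. Without it, 457 genes differed between silica and air at 12 months (limma, Benjamini-Hochberg adjusted over 1278 tested genes, threshold 0.05), and in 395 of them (86.4%) its value was nearer to the air mean, against 21 to 134 genes for each of the other 4 silica libraries of that time. The other 4 libraries helped to call these genes and this library did not, so the counts do not compare like with like. With this library, 302 genes were called. Its relative depth was 0.713. Its label was kept, and results that rest on it are given with and without it.

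Srd5a1 had the lowest median of the 3 genes in silica lungs by FPKM, a scale per transcript length, with 2.32 to 5.92 FPKM (median 4.05) in silica lungs and 1.54 to 3.22 FPKM (median 2.22) in air lungs. In the 1-month groups, it had 3.14, 2.82, 2.78, 3.67 and 2.68 FPKM in silica lungs, against 1.81, 1.54, 1.75, 2.22 and 2.18 FPKM in air lungs. At 3 months the 5 silica lungs held 3.57, 3.56, 3.92, 3.00 and 2.70 FPKM, and the air lungs 1.94, 1.87, 1.65, 1.96 and 1.75 FPKM. At both times every silica lung was above every air lung. By 6 months the reductase transcript stood at 4.75, 4.18, 3.73, 3.41 and 3.64 FPKM in silica lungs, against 2.25, 2.07, 2.59, 2.11 and 2.42 FPKM in air lungs. At 9 months it measured 4.37, 4.87, 4.57, 5.82 and 5.09 FPKM in silica lungs, against 2.56, 2.27, 2.15 and 2.37 FPKM in the 4 air lungs. The groups were again apart, with the gap between the lowest silica lung and the highest air lung wider at 9 months than at 6 months. In 12-month lungs the values were 5.90, 4.67, 2.32, 5.92 and 5.15 FPKM with silica, against 1.72, 2.48, 2.53, 2.28 and 2.55 FPKM with air. The 18-month values were 4.52, 3.86, 4.93, 5.90 and 4.70 FPKM in silica lungs, against 2.15, 2.47, 3.22, 2.80 and 2.27 FPKM in air lungs. The groups overlapped only at 12 months, where the third silica lung lay among the air lungs and the other 4 lay above all of them.

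Group means of Srd5a1 were 3.02 ± 0.403 FPKM in silica lungs and 1.90 ± 0.290 FPKM in air lungs at 1 month (SD, n = 5 each), a ratio of 1.59. With all libraries, the largest ratio was 2.12 at 9 months, with 4.94 ± 0.559 FPKM in silica lungs (n = 5) and 2.34 ± 0.170 FPKM in air lungs (n = 4). At 18 months the means were 4.78 ± 0.740 FPKM in silica lungs and 2.58 ± 0.434 FPKM in air lungs (SD, n = 5 each), a ratio of 1.85. On the log2(FPKM + 0.5) scale, which understates the change of low genes, silica minus air was 0.55 at 1 month, 0.72 at 3 months, 0.67 at 6 months, 0.94 at 9 months, 0.86 at 12 months and 0.78 at 18 months, with an SE of 0.13 or 0.14. Without the third silica library, the 12-month silica mean was 5.41 ± 0.608 FPKM (SD, n = 4), the difference 1.08 and the ratio 2.34, which is above that at 9 months. In bulk tissue, more cells of a type and more RNA per cell cannot be told apart, here and in all that follows.

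Cited2 was the most abundant of the 3 per length, with 8.96 to 19.4 FPKM (median 13.8) in silica lungs and 5.31 to 9.79 FPKM (median 8.62) in air lungs. In 1-month lungs the p300 partner stood at 9.46, 10.4, 10.2, 9.34 and 9.43 FPKM with silica, against 5.88, 5.31, 6.23, 6.27 and 8.44 FPKM with air. At 3 months its values were 12.7, 14.3, 13.8, 12.0 and 10.7 FPKM in silica lungs, against 8.75, 7.24, 6.72, 8.19 and 7.50 FPKM in air lungs. No air lung reached the lowest silica lung at these times, although the fifth air lung at 1 month came within about 1 FPKM. Six-month silica lungs had 14.0, 14.4, 13.9, 14.8 and 15.2 FPKM, and their air lungs 8.93, 8.97, 8.84, 8.79 and 7.56 FPKM. The 9-month lungs had 12.5, 12.7, 17.3, 15.2 and 14.6 FPKM with silica, against 7.53, 8.04, 8.86 and 9.63 FPKM with air. The 6-month silica lungs were the most uniform set of Cited2 values on the log scale among silica groups, and both times were free of overlap. At 12 months Cited2 measured 18.2, 14.7, 8.96, 18.2 and 19.4 FPKM in silica lungs, against 9.58, 9.09, 8.76, 9.65 and 6.17 FPKM in air lungs. Values at 18 months were 12.3, 12.5, 14.3, 15.7 and 12.0 FPKM in silica lungs, against 9.02, 9.79, 8.83, 8.62 and 7.91 FPKM in air lungs. The third silica lung at 12 months again lay among the air lungs, and this was the only time with overlap.

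Mean Cited2 was 9.76 ± 0.490 FPKM in silica lungs and 6.43 ± 1.19 FPKM in air lungs at 1 month (SD, n = 5 each), a ratio of 1.52. At 12 months it was 15.9 ± 4.27 FPKM in silica lungs and 8.65 ± 1.43 FPKM in air lungs (SD, n = 5 each), a ratio of 1.84, and at 18 months the ratio was 1.51. Silica minus air on the log2 scale was 0.58, 0.69, 0.72, 0.73, 0.81 and 0.57 from 1 to 18 months, with an SE of 0.12 or 0.13. Without the third silica library, the 12-month silica mean was 17.6 ± 2.06 FPKM (SD, n = 4), the difference 1.00 and the ratio 2.04.

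Meis3 had 2.43 to 9.38 FPKM (median 5.05) in silica lungs and 0.995 to 4.18 FPKM (median 2.52) in air lungs. At 1 month this homeobox gene had 4.62, 4.39, 3.91, 4.59 and 4.06 FPKM in silica lungs, against 2.79, 3.05, 1.77, 2.95 and 3.35 FPKM in air lungs. Three-month lungs showed 5.36, 4.82, 5.43, 4.14 and 3.88 FPKM with silica, against 2.31, 1.67, 1.76, 2.52 and 2.22 FPKM with air. The groups did not overlap at either time. Among 6-month lungs, silica values were 5.16, 4.81, 6.26, 5.76 and 5.60 FPKM, and air values 2.68, 2.44, 2.34, 3.07 and 3.55 FPKM. Among 9-month lungs, silica values were 4.94, 5.53, 7.23, 6.51 and 7.63 FPKM, and air values 1.96, 2.55, 3.00 and 2.86 FPKM. Both times kept a gap between the groups. At 12 months the silica lungs spread widely, with 6.85, 3.78, 2.43, 9.38 and 6.58 FPKM, while the air lungs were close together, with 2.43, 2.53, 2.46, 2.58 and 2.62 FPKM. At 18 months silica lungs had 5.94, 3.09, 4.63, 6.94 and 4.14 FPKM, against 0.995, 2.45, 4.18, 1.18 and 1.45 FPKM in air lungs. The 12-month overlap came from the third silica lung and the 18-month overlap from the third air lung, which was above 2 of the 5 silica lungs.

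Mean Meis3 was 4.32 ± 0.318 FPKM in silica lungs and 2.78 ± 0.603 FPKM in air lungs at 1 month (SD, n = 5 each), a ratio of 1.55. With all libraries, its largest ratio was 2.46 at 9 months, with 6.36 ± 1.13 FPKM in silica lungs (n = 5) and 2.59 ± 0.462 FPKM in air lungs (n = 4). At 18 months the means were 4.95 ± 1.51 FPKM in silica lungs and 2.05 ± 1.31 FPKM in air lungs (SD, n = 5 each), a ratio of 2.41. Silica minus air on the log2 scale was 0.57, 1.01, 0.87, 1.15, 0.93 and 1.18 from 1 to 18 months, with an SE of 0.22 or 0.23. Without the third silica library the 12-month silica mean was 6.65 ± 2.29 FPKM (SD, n = 4), the difference 1.18 and the ratio 2.63, which is above that at 9 months.

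**Figure D1:**
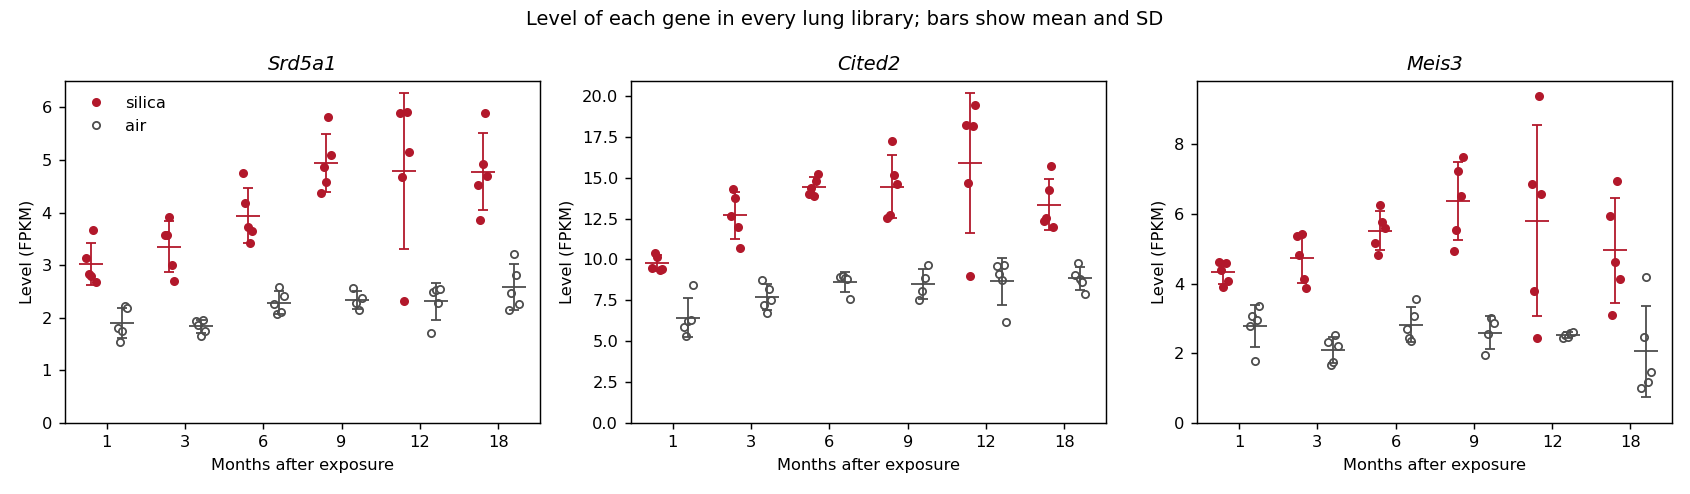
FPKM of Srd5a1, Cited2 and Meis3 in each library at months 1 to 18, with silica lungs left of air lungs at each time, points for libraries and bars for the mean and SD. Silica lungs lie above air lungs at every time except for single libraries at 12 months (all 3 genes, silica replicate 3 at 2.32, 8.96 and 2.43 FPKM) and, for Meis3, several libraries at 18 months.

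Read together, Srd5a1 and Cited2 had every silica lung above every air lung at 5 of the 6 times and Meis3 at 4 of 6. Over all 1278 tested genes, the share with every silica value above every air value was 8.06% at 1 month, 11.0% at 3 months, 20.6% at 6 months, 16.0% at 9 months, 1.64% at 12 months and 9.23% at 18 months. Nothing is read from the members' counts against these shares, because the contrast chose the members. Averaged over the 6 times, silica minus air was 0.95 ± 0.089 for Meis3, 0.75 ± 0.054 for Srd5a1 and 0.68 ± 0.051 for Cited2 (log2, SE), which is 1.94-fold, 1.68-fold and 1.60-fold. These placed 15th, 29th and 37th among the tested genes, whose median was 0.032. At single times from 1 to 18 months, 8.84%, 18.2%, 27.6%, 30.8%, 23.6% and 15.3% of all tested genes were called, and 8.45%, 15.9%, 21.2%, 19.5%, 14.6% and 11.8% were called higher. In the mean over times, 57.6% of all tested genes were called, 37.5% higher and 20.1% lower. That split depends on the scaling, with 479 higher and 257 lower as deposited, 338 and 429 with each library centred on its median, and 312 and 448 with quantile normalization. A difference of at least 0.5 at each of the 6 times was found in 16 genes (1.25%), which include all 3 members and also Arg1, C5ar1, Sod2, Cd177 and P2ry2, named here for that value.

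The order of the 12 group means was alike in outline for the 3 genes, with all 6 silica groups above all 6 air groups. For Srd5a1 the silica order from the top was 9, 12, 18, 6, 3 and 1 months, and the air order 18, 9, 12, 6, 1 and 3 months. Neighbours in this order were further apart than the larger of their SDs only between 18 and 6 months and between 6 and 3 months in silica lungs, between the 1-month silica and 18-month air groups, and between 6 and 1 months in air lungs. For Cited2 the silica order was 12, 9, 6, 18, 3 and 1 months and the air order 18, 12, 6, 9, 3 and 1 months, with such gaps only between 3 and 1 months in silica lungs, between the 1-month silica and 18-month air groups, and between 3 and 1 months in air lungs. For Meis3 the silica order was 9, 12, 6, 18, 3 and 1 months and the air order 6, 1, 9, 12, 3 and 18 months, with such gaps only between the 1-month silica and 6-month air groups and between 12 and 3 months in air lungs. The 1-month silica group was thus the lowest silica group for each gene. The remaining neighbours did not differ beyond their spread.

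With time, the size of the silica difference ran from 0.55 to 0.94 for Srd5a1, 0.57 to 0.81 for Cited2 and 0.57 to 1.18 for Meis3 over the 6 times. The difference at 18 months minus that at 1 month was 0.22 for Srd5a1, with 2 SE on either side reaching from -0.15 to 0.59. It was -0.015 for Cited2, from -0.36 to 0.33, and 0.61 for Meis3, from 0.000131 to 1.22. No test is given, since these differences entered the choice of the genes, and steadiness is not shown by them: the intervals include a change of more than 0.5 for Srd5a1 and Meis3. Over all tested genes, the difference varied between times in 17 (1.33%; 78 without the third 12-month silica library) by limma's F test, and differed between 18 months and 1 month in 2 (0.156%).

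**Figure D2:**
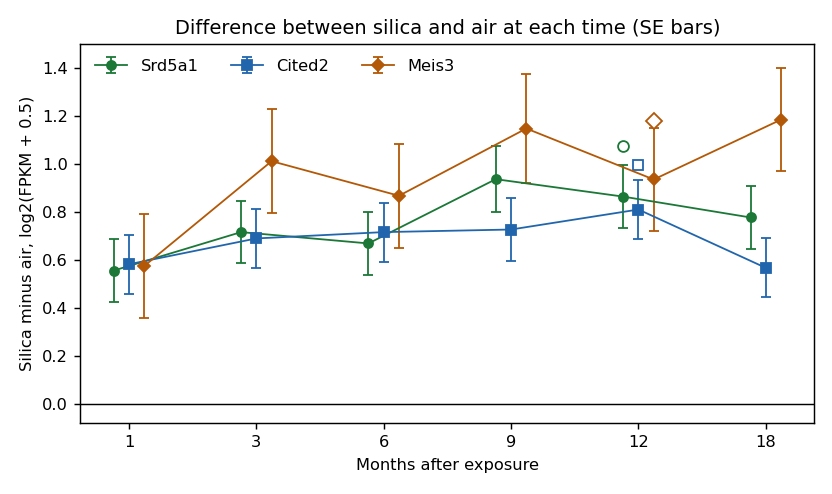
Silica minus air of log2(FPKM + 0.5) at months 1 to 18 for the 3 genes, with bars for the SE of the limma fit and open markers for the 12-month value without the third silica library. Every difference is above 0.5; Meis3 reaches 1.18 at 18 months, and at 12 months without that library, and has the widest bars.

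Age in air lungs was a comparison that the choice of genes did not use as such, and the 3 genes differed in it. The air values themselves entered the choice, as the level that silica lungs were compared with, so its tests are not fully free of it. Each time was a separate set of rats, so age cannot be told apart from other differences between these sets, here and wherever age in air is named. Cited2 was 0.44 ± 0.12 higher on the log2 scale in 18-month than in 1-month air lungs (SE, limma adjusted p = 0.00669), with 8.83 ± 0.680 FPKM at 18 months and 6.43 ± 1.19 FPKM at 1 month (SD, n = 5 each); 4 of the 5 older lungs were above every younger one. Srd5a1 was 0.36 ± 0.13 higher (adjusted p = 0.0414), with 2.58 ± 0.434 FPKM at 18 months and 1.90 ± 0.290 FPKM at 1 month (SD, n = 5 each) and 4 of the 5 older lungs above every younger one. This call was lost when any of air replicates 1, 2 or 3 at 1 month or 2, 3 or 4 at 18 months was left out (0.29 to 0.41 over all libraries left out in turn, adjusted p up to 0.142). Meis3 was 0.48 ± 0.22 lower without passing the threshold (adjusted p = 0.111), with 3 of the 5 older lungs below every younger one, and without the third 18-month air library, the one at 4.18 FPKM, it was 0.73 lower (adjusted p = 0.00910). With age in air, 21.8% of all tested genes were called, 17.4% higher and 4.46% lower, around a median of 0.050. The split was 222 higher and 57 lower as deposited, 122 and 165 with median centring, and 141 and 150 with quantile normalization. Under these scalings the higher Cited2 still passed and the higher Srd5a1 did not (0.27 and 0.28, adjusted p = 0.0946 and 0.0888), and the lower Meis3 did (-0.56 and -0.57, adjusted p = 0.0485 and 0.0486). In the F test over all 6 air groups, Cited2 passed (F = 3.73, adjusted p = 0.0264), while Srd5a1 (F = 2.74, adjusted p = 0.0817) and Meis3 (F = 1.70, adjusted p = 0.265) did not, against 28.9% of all tested genes. Without the third 12-month silica library, which enters only through the shared spread, Srd5a1 passed too (adjusted p = 0.00900). The F test of Cited2 no longer passed without any of air replicates 1, 2, 3 or 4 at 1 month (adjusted p up to 0.117), and that of Meis3 passed without the third 18-month air library (adjusted p = 0.0267).

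Rats of the same group differed in these genes, and the differences ran together. The spread within groups on the log2 scale was 0.211 for Srd5a1, 0.198 for Cited2 and 0.352 for Meis3, the 960th, 882nd and 1192nd of 1278 genes from the lowest. Deviations from the group means over 59 libraries were correlated between Srd5a1 and Meis3 with r = 0.618 and rho = 0.449 (permutation test within groups, two-sided, adjusted over the 3 pairs, p = 0.00045 and 0.00286). Between Cited2 and Meis3 the permutation test gave r = 0.535 and rho = 0.494 (adjusted p = 0.00099 and 0.00231). Between Srd5a1 and Cited2 it gave r = 0.542 and rho = 0.362 (adjusted p = 0.0134 and 0.0137). The raw p of r were 0.00015, 0.00066 and 0.0134 in the same order of pairs. Without the 2 libraries farthest from the median of the first gene, r was 0.460, 0.449 and 0.282. In this step, here and below, deviations were still taken from group means that included the 2 libraries left out. These relations were not particular to the 3 genes. Among 1277 other genes by r, Meis3 was 47th and Cited2 94th for Srd5a1. For Cited2, Srd5a1 was 36th and Meis3 39th, and for Meis3, Srd5a1 was 27th and Cited2 60th. Without the third 12-month silica library these ranks were 32nd and 320th, 192nd and 65th, and 30th and 92nd in the same order.

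The third 12-month silica library had much weight in this. Without it, over 58 libraries, r was 0.476 between Srd5a1 and Meis3 (permutation test, adjusted p = 0.00318) and 0.364 between Cited2 and Meis3 (adjusted p = 0.00940), with rho of 0.391 and 0.415 (adjusted p = 0.0109 each), and both pairs still passed. Srd5a1 and Cited2 no longer did, with r = 0.236 and rho = 0.255 (permutation test, adjusted p = 0.127 and 0.0792), so that this relation rests on that library. In the 30 silica libraries alone r was 0.768 for Srd5a1 with Cited2, 0.768 for Srd5a1 with Meis3 and 0.794 for Cited2 with Meis3 (permutation test, adjusted p = 0.00342, 0.00081 and 0.00096), and in the 29 air libraries 0.058, 0.385 and 0.180 (adjusted p = 0.805, 0.363 and 0.409). The 30 silica libraries include the third 12-month silica library. Without the 2 silica libraries farthest from the median of the first gene, r was 0.501, 0.566 and 0.672. The same step in air libraries gave 0.182, 0.217 and 0.176. As the group means were not taken again, the silica r of this step are not free of the third 12-month silica library. That silica and air libraries differ in these r was not tested.

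**Figure D3:**
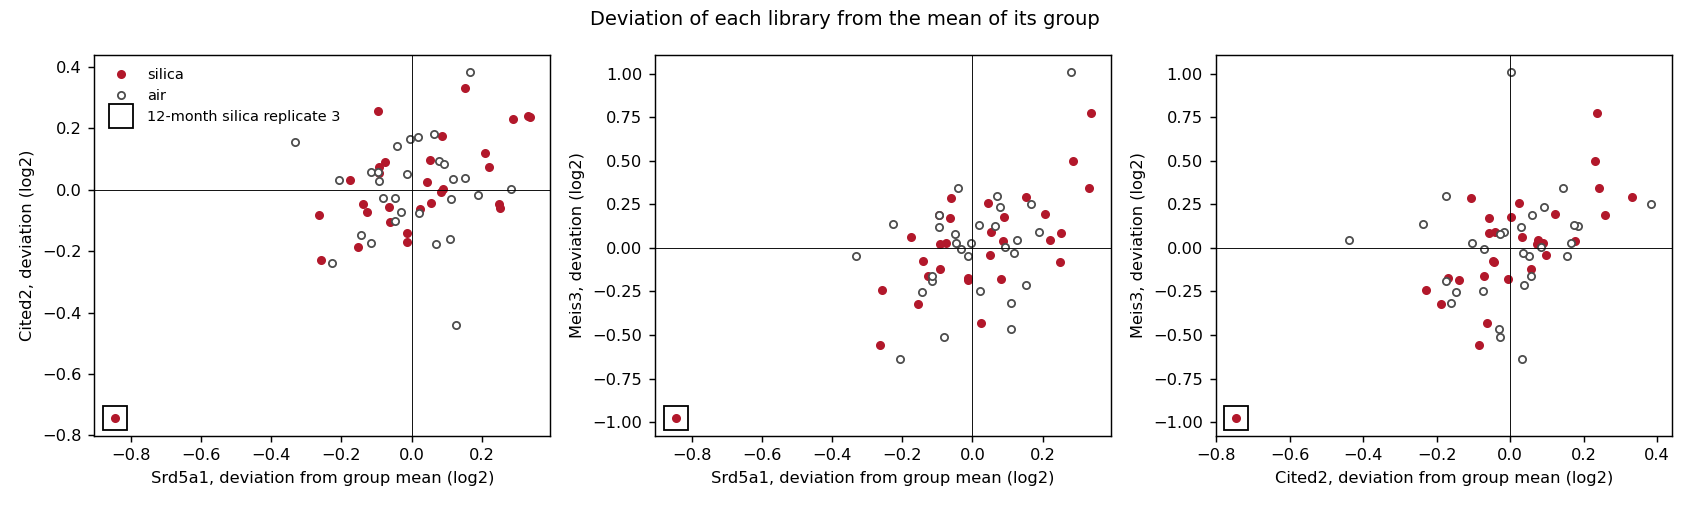
Deviation of each library from its group mean on the log2(FPKM + 0.5) scale for each pair of the 3 genes, silica libraries filled and air libraries open. The marked library, replicate 3 of 12-month silica, is the lowest point in each panel; r is 0.542, 0.618 and 0.535 with it and 0.236, 0.476 and 0.364 without it.

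The genes most like each member were found by r over the 12 group means, points that share libraries and the contrast that chose the members, so r is a description only. For Srd5a1 they were Ftl1, ferritin light chain (r = 0.982), Oscar, a receptor of myeloid cells (0.979), LOC103690093 (0.975), Fam83e (0.971) and Pld3, a lysosomal nuclease (0.968). For Cited2 they were Cebpa, a transcription factor of type 2 and myeloid cells (0.982), Napsa, the aspartic peptidase that processes surfactant protein B (0.974), Apobr, a lipoprotein receptor of macrophages (0.971), Etfb of the mitochondrial electron transfer flavoprotein (0.967) and Pld3 (0.961). For Meis3 they were Sod2, the mitochondrial superoxide dismutase (0.979), Atp10a, a lipid flippase (0.976), Pld3 (0.964), Cd33, a myeloid siglec (0.963), and arginase Arg1 (0.959). The members were not each other's nearest: Cited2 was 16th and Meis3 108th for Srd5a1, and Srd5a1 was 9th and Meis3 118th for Cited2. Without the third 12-month silica library, 14 of these 15 places stayed within the first 5, and Pld3 was 6th for Cited2.

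By deviations from group means, over 59 libraries that share depth and tissue sampling, Meis3 ran most closely with Pld3 (r = 0.840), Plaur, the urokinase receptor (0.768), Ethe1, a mitochondrial sulfur dioxygenase (0.767), Ftl1 (0.761) and Siglec10 (0.714). All 5 kept their places without the third 12-month silica library, with Pld3 at 0.809. Srd5a1 ran with Lpcat1, which makes surfactant phosphatidylcholine (0.811), Enpp3, an ectonucleotidase (0.788), LOC103690935 (0.775), Pld3 (0.773) and P2ry2, a nucleotide receptor (0.764). Without that library Enpp3 was first (0.658) and Lpcat1 second (0.656), and the other 3 were 5th to 8th. Cited2 had the weakest likenesses, to Pld3 (0.691), Mboat7, a phosphatidylinositol acyltransferase (0.688), Ftl1 (0.687), Tpp1, a lysosomal peptidase (0.675) and Vsig10l (0.674), and without that library Pld3 was 22nd (0.479) and Ftl1 24th (0.470). The median r of each member with all other tested genes was 0.123 for Srd5a1, 0.051 for Cited2 and 0.031 for Meis3. Pld3, on the first-5 lists of all 3 members in both measures, was 0.83 ± 0.071 higher in silica lungs in the mean over times.

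Genes of the pathways around the members moved in both directions. Of 50 genes of steroid synthesis, metabolism and reception other than Srd5a1, 10 were in the table and 6 were tested, of which 3 were called higher, 1 lower and 2 not called in the mean over times, with a median of 0.065, beside 37.5% of all tested genes called higher and 20.1% lower and a median of 0.032. Esr1, the oestrogen receptor, rose by 1.47 ± 0.11 (limma adjusted p = 8.53e-16), with a median of 2.54 FPKM in silica lungs and 0.418 FPKM in air lungs. Hsd3b7, a bile acid synthesis dehydrogenase, rose by 0.17 ± 0.035 (adjusted p = 3.99e-05), and Stard10, a phospholipid transfer protein, by 0.13 ± 0.039 (adjusted p = 0.00285), a call lost with median centring (adjusted p = 0.0678) and quantile normalization (adjusted p = 0.903) of the libraries. Lipe, the hormone-sensitive lipase, fell by 0.34 ± 0.043 (adjusted p = 3.83e-09). The sulfotransferase Sult1a1 (-0.015) and the oxysterol receptor Nr1h2 (-0.0049) were not called, but Sult1a1 was lower with quantile normalization (-0.14) and Nr1h2 with both scalings (-0.066 and -0.12). With age in air, Sult1a1 rose by 0.56 ± 0.13 (limma adjusted p = 0.00156) and Lipe by 0.38 ± 0.10 (adjusted p = 0.00615), and Hsd3b7 fell by 0.25 ± 0.085 (adjusted p = 0.0277). Lipe and Hsd3b7 thus each changed in opposite directions with silica and with age.

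Around Cited2, of 42 genes of the hypoxia response and partners of CBP and p300, 9 were in the table and 8 were tested, with 4 called higher, 3 lower and 1 not called, and a median of 0.088, to be read against the same shares and median of all tested genes. The genes that rose were 3 of glycolysis, Ldha by 0.51 ± 0.041 (limma adjusted p = 3.10e-15), Aldoa by 0.34 ± 0.036 (adjusted p = 1.30e-11) and Gpi by 0.24 ± 0.031 (adjusted p = 4.10e-09), and the HIF partner Arnt2 by 0.15 ± 0.037 (adjusted p = 4.83e-04). Those that fell were Adm, the vasodilator peptide adrenomedullin, by 0.20 ± 0.056 (adjusted p = 0.00167), Bnip3, a mitophagy receptor, by 0.15 ± 0.037 (adjusted p = 5.41e-04), and the collagen prolyl hydroxylase P4ha3 by 0.15 ± 0.049 (adjusted p = 0.00558). Egln2, a HIF prolyl hydroxylase, was not called (0.024), but was lower with quantile normalization (-0.074). The list as a whole did not move one way. With age in air 4 of the 8 rose (Aldoa, Arnt2, Gpi and P4ha3, by 0.30 to 0.45) and none fell, beside 17.4% of all tested genes called higher and 4.46% lower with age.

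Around Meis3, 11 of 47 homeobox genes were in the table and 3 were tested. Six5 fell by 0.11 ± 0.042 (limma adjusted p = 0.0223), and Irx1 (0.019) and Irx2 (0.022), transcription factors of the developing lung, were not called with silica. Both Irx genes rose with age in air, Irx1 by 0.42 ± 0.13 (limma adjusted p = 0.0158) and Irx2 by 0.34 ± 0.080 (adjusted p = 0.00162), beside 17.4% of all tested genes called higher with age. Meis3 was lower with age without passing. With median centring the call of Irx1 was lost (0.33, limma adjusted p = 0.0539). The counts of the 3 lists, with silica and with age in air, did not change when the third 12-month silica library was left out.

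Markers of cell types moved with the same contrast, in which 37.5% of all tested genes were called higher and 20.1% lower. With median centring that split was 338 higher and 429 lower. Only part of each list was tested, with 14 of 25 myeloid, 3 of 13 type 2, 5 of 16 endothelial and 3 of 18 fibroblast and smooth muscle markers. The marker lists, like the pathway lists above, were chosen with earlier results of these data known. Their counts are therefore a description, and nothing is read from them against the shares of all tested genes. All 14 tested myeloid markers rose, by a median of 0.74 (all but Coro1a also with quantile normalization), and their summed level was 146 to 354 FPKM (median 280) in silica lungs and 137 to 210 FPKM (median 165) in air lungs. All 3 tested type 2 cell markers rose, Lpcat1 by 0.67 ± 0.042, Napsa by 0.64 ± 0.047 and Cebpa by 0.47 ± 0.043, and their sum was 138 to 318 FPKM (median 229) in silica lungs and 130 to 166 FPKM (median 146) in air lungs. All 5 tested endothelial markers fell, by a median of 0.25, with sums of 63.1 to 99.8 FPKM in silica lungs and 88.3 to 107 FPKM in air lungs. All 3 tested fibroblast and smooth muscle markers, Tcf21, Ltbp4 and Fxyd1, fell by a median of 0.29, with sums of 43.8 to 90.0 FPKM in silica lungs and 66.4 to 88.9 FPKM in air lungs. The collagen genes of that list were not among the tested genes. Of 2 airway markers Cxcl17 rose by 0.65, with sums of 51.7 to 85.2 FPKM in silica lungs and 36.6 to 59.01 FPKM in air lungs. The B cell markers Cd22 (-0.12) and Cd37 (0.059) were not called, although Cd22 was lower with both other scalings, and of 2 T and NK cell markers Nkg7 fell by 0.38 (sums 9.99 to 24.5 FPKM in silica lungs and 11.0 to 29.5 FPKM in air lungs). Of 5 striated muscle markers, Cox8b fell by 0.49 and 4 were not called (sums 4.16 to 183 FPKM in silica lungs and 6.48 to 136 FPKM in air lungs). Of the tested markers, Ckm and Csrp3 of muscle were at 0 in some libraries and the others were above 0 in every library. The third 12-month silica library had a myeloid sum of 146 FPKM, a type 2 sum of 138 FPKM and an endothelial sum of 99.8 FPKM, all within the range of the 12-month air lungs. Its airway, B cell and T and NK cell sums were within that range too. Its fibroblast and smooth muscle sum (90.0 FPKM) and striated muscle sum (46.7 FPKM) were above the highest 12-month air lung (88.9 and 43.0 FPKM). The part of these cell types in the higher Srd5a1, Cited2 and Meis3 was not tested.

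Between rats of the same group, the members also ran with summed markers, a set of 9 relations that was added after the data were seen and adjusted together. Only the myeloid, type 2 and endothelial sums were used, and the adjustment does not cover that choice. The type 2 sum is made of Lpcat1, Napsa and Cebpa. Lpcat1 was the gene most like Srd5a1 by these same deviations (r = 0.811), and Cebpa and Napsa were the most like Cited2 by group means. These relations are thus not independent of those likenesses. Srd5a1 was related to the type 2 sum with r = 0.778 and rho = 0.627 over 59 libraries (permutation test, adjusted p = 4.50e-05 and 9.00e-05), and without the third 12-month silica library with r = 0.573 and rho = 0.598 (adjusted p = 9.00e-05 for both); the raw p of r, 1e-05, was the smallest the resamples can give. Meis3 was related to it with r = 0.667 and rho = 0.662 (permutation test, adjusted p = 4.50e-05 and 9.00e-05), and r = 0.555 and rho = 0.593 without that library (adjusted p = 1.80e-04 and 9.00e-05). Cited2 had r = 0.656 and rho = 0.445 (permutation test, adjusted p = 0.00580 and 0.00846), and without that library it passed by r (0.374, adjusted p = 0.0397) and no longer by rho (0.334, adjusted p = 0.05004). Leaving out instead the 2 libraries farthest from the median of the member gave r = 0.610, 0.597 and 0.483 for Srd5a1, Meis3 and Cited2.

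Relations to the myeloid sum gave r = 0.640, 0.515 and 0.542 for Srd5a1, Meis3 and Cited2 (permutation test, adjusted p = 0.00958, 0.00709 and 0.0507), rho of 0.421, 0.346 and 0.331 (adjusted p = 0.00846, 0.0317 and 0.0420), and without the third 12-month silica library r = 0.297, 0.296 and 0.158, of which none passed (adjusted p = 0.0692, 0.0586 and 0.492), while by rho, at 0.3501, 0.246 and 0.225, Srd5a1 passed (adjusted p = 0.0437, 0.139 and 0.181). Relations to the endothelial sum were negative, with r = -0.422, -0.518 and -0.375 (permutation test, adjusted p = 0.0574, 0.00580 and 0.0700), rho of -0.151, -0.401 and -0.137 (adjusted p = 0.361, 0.0132 and 0.369), and only that of Meis3 passed. Without that library Meis3 passed by r (-0.369, permutation test, adjusted p = 0.0397) and no longer by rho (-0.322, adjusted p = 0.05004). Leaving out the 2 libraries farthest from the median of the member gave r = 0.351, 0.335 and 0.276 with the myeloid sum and -0.123, -0.486 and -0.198 with the endothelial sum.

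**Figure D4:**
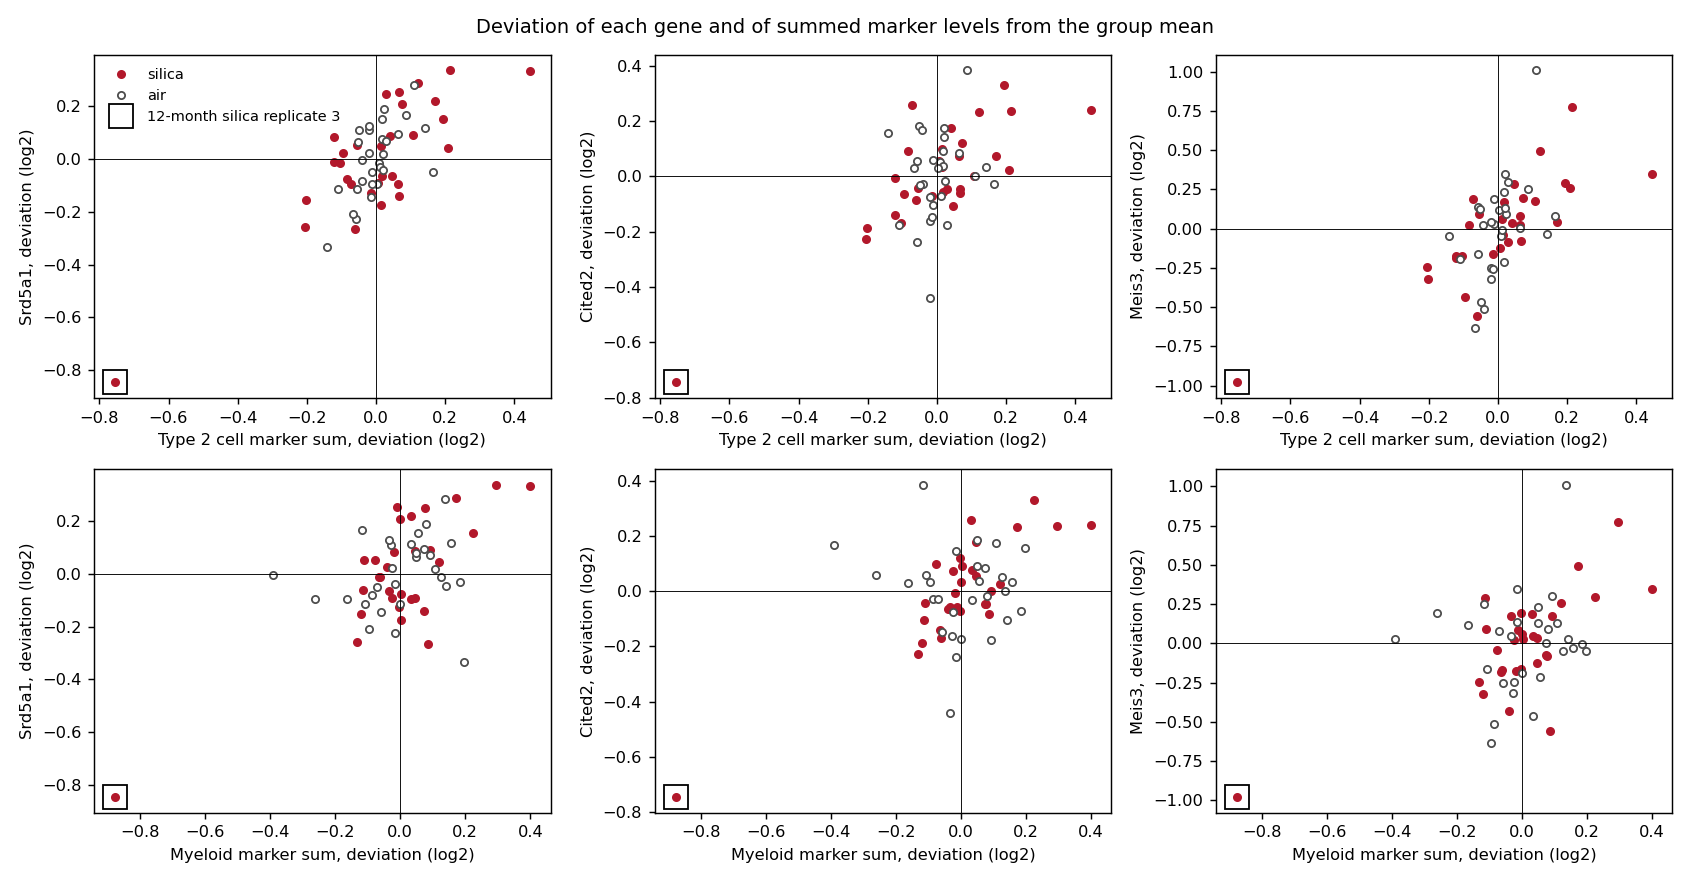
Deviation of each library from its group mean (log2) for the 3 genes against that of the summed type 2 cell markers (upper row) and myeloid markers (lower row), silica filled, air open. The boxed library, replicate 3 of 12-month silica, lies at the lower left of every panel; without it, r with the type 2 sum is 0.573, 0.374 and 0.555 for Srd5a1, Cited2 and Meis3, and with the myeloid sum 0.297, 0.158 and 0.296.

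On chromosome 1, in the gene order of GRCr8, the 3 members lie apart from each other. Of the 4 tested genes on either side of Srd5a1, 8 in all, 3 were called higher, 2 lower and 3 not, while the counts were 2, 3 and 3 around Cited2 and 3, 1 and 4 around Meis3, against 37.5% of all tested genes called higher and 20.1% lower. The counts depend on the scaling. With median centring they were 3, 3 and 2 around Srd5a1, 1, 6 and 1 around Cited2 and 3, 1 and 4 around Meis3. With quantile normalization they were 2, 2 and 4 around Srd5a1, 1, 5 and 2 around Cited2 and 2, 1 and 5 around Meis3. The higher calls of Vta1, Med10 and Napa were lost in at least 1 of these scalings, Aig1 and Hivep2 were lower in both, and Reps1 and Fastkd3 were lower with median centring. The nearest to Srd5a1 is Nsun2, an RNA methyltransferase on the opposite strand, whose start lies 608 bases from that of Srd5a1. Nsun2 rose by 0.23 ± 0.033 (limma adjusted p = 8.86e-08), with medians of 11.0 FPKM in silica lungs and 9.36 FPKM in air lungs, while Adcy2, an adenylate cyclase further along, fell by 0.29 ± 0.053 (adjusted p = 6.56e-06).

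Beside Cited2, Abracl, a small actin regulator, rose by 0.30 ± 0.048 (limma adjusted p = 4.43e-07) and Vta1, of multivesicular body sorting, by 0.12 ± 0.031 (adjusted p = 0.00110; 0.0845 with median centring and 0.550 with quantile normalization). Gpr126, an adhesion receptor, fell by 0.19 ± 0.027 (adjusted p = 5.48e-08). Tested genes 2 and 3 after Meis3 are the C5a receptor genes C5ar2, which rose by 0.45 ± 0.045 (adjusted p = 3.72e-12), and C5ar1, which rose by 0.74 ± 0.059 (adjusted p = 1.92e-15). Ehd2, a caveolar protein and endothelial marker on the other side of Meis3, fell by 0.25 ± 0.027 (adjusted p = 1.56e-11). Dhx34 and Kptn, the tested genes directly next to Meis3, were not called (0.026 and 0.071).

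**Figure D5:**
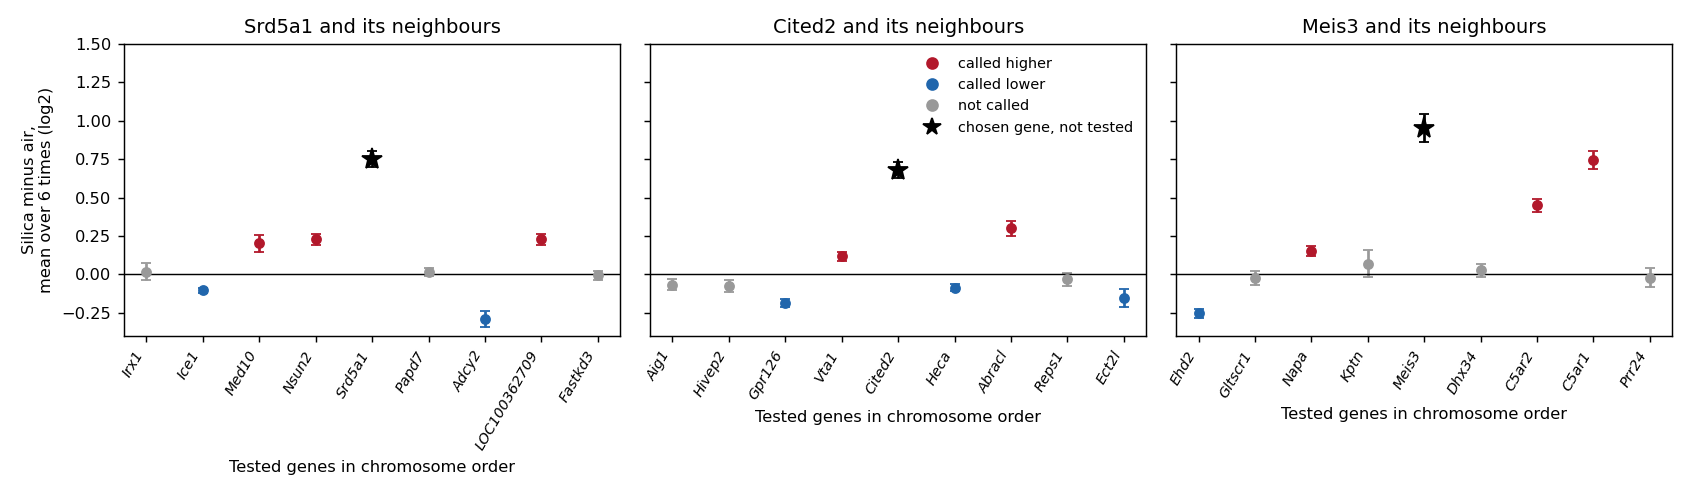
Silica minus air, mean over times (log2, with SE), of the 4 tested genes on either side of Srd5a1, Cited2 and Meis3 in chromosome order, with the members as stars. The members, at 0.75, 0.68 and 0.95, stand above all of their neighbours; the nearest in size is C5ar1 at 0.74 beside Meis3.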

How the data were processed

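RNA from a piece of lung of 59 rats was isolated with miRNeasy kits and DNase, and libraries were made with TruSeq Stranded Total RNA Ribo-Zero Gold, per the labels' protocols. Tools named per the submitters' processing notes, in no order, were Cufflinks 2.1.1, TopHat2 2.0.9 with Bowtie2 2.2.9, Trimmomatic 0.35, and bcl2fastq 2.19. No genome build is named. The authors deposited FPKM, 1 column per library. Of 2888 entries 1 was incomplete (31 of 59 values) and left out. Symbols or synonyms of RefSeq GRCr8 matched 2061 of 2887 names, most of them on chromosome 1; genes elsewhere were not analysed here.

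Genes with at least 1 FPKM in at least 4 libraries (1278) were tested on log2(FPKM + 0.5) with limma (version 3.58.1, R 4.3.3), in 1 fit of 12 groups with an intensity trend and no covariate, adjusted by Benjamini-Hochberg over all 1278. All 3 members passed this filter. The fit was tested on simulated data. Deviations from group means were correlated with permutation within groups (100000 resamples, and 10000 where each library was left out in turn). In 261 low entries, 62.3% of 1997 values lay within log2 0.1 of 1 step, which gives relative depth but not whole reads. No 2 libraries of a group were identical; p-values measure the spread between rats. Named genes are the members, the 5 most like each by either measure, 4 tested neighbours on either side and the called list genes with the smallest p. Tested list genes that were not called, and examples of genes at 0.5 or more at all 6 times, were named after their values were seen. The members and lists were chosen with earlier results of these data known. Python 3.11.15 and matplotlib 3.10.9 were used for the plots. Alternatives were other pseudocounts (0.1 and 1), no filter, median centring, quantile normalization, no trend, each time alone or left out, and each library left out.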

Additional observations from a re-analysis of the deposited data

Results flagged for a closer look

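In 36 groups of 4 or 5 libraries, the highest or lowest value of a member was compared with the others by Dixon's rule, which chance meets in about 1 of 20 groups, and it was met in 2. Both were low Cited2 values in air lungs. Replicate 5 of the 6-month air group had 7.56 FPKM, where the other 4 had 8.79 to 8.97 FPKM. Replicate 5 of the 12-month air group had 6.17 FPKM, where the other 4 had 8.76 to 9.65 FPKM.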

How the results depend on the processing

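Each silica minus air difference of the 3 genes, at each time and in the mean over times, kept its sign in every alternative run, and the mean ranged from 0.66 to 0.85 for Srd5a1, 0.58 to 0.71 for Cited2 and 0.84 to 1.07 for Meis3. Age in air depended more on the settings. For Srd5a1 at 18 months against 1 month the call was lost with a pseudocount of 1 (0.30, adjusted p = 0.0504), no filter (0.36, 0.0863), median centring (0.27, 0.0946), quantile normalization (0.28, 0.0888) and without the 3-, 6- or 9-month groups (0.36 each, 0.0540, 0.0581 and 0.0540), in a range of adjusted p from 0.00607 to 0.142 over all alternatives, and from 0.29 to 0.41 in size with each library left out. Its F test in air passed without the 12-month groups (adjusted p = 0.00537; 0.00900 to 0.165 with each library left out). That of Cited2 was lost with no filter (0.0615), median centring (0.0758), without the 1-month groups (0.737) or the 18-month groups (0.0534), and without air replicates 1, 2, 3 or 4 at 1 month (0.00244 to 0.117 over libraries left out; 0.000687 to 0.737 over all alternatives). The fall of Meis3 passed with median centring (-0.56, 0.0485), quantile normalization (-0.57, 0.0486) and without air replicate 3 at 18 months (-0.73 to -0.32 over libraries left out; adjusted p 0.00910 to 0.334 over all alternatives), as did its F test without that library (0.0267 to 0.526). The Cited2 difference at 18 months against 1 month, near 0, changed sign with median centring (0.018), quantile normalization (0.039) and 7 libraries left out singly (-0.11 to 0.044). The cause of these shifts was not tested. Correlations of deviations missed the threshold in air libraries alone (0.058, 0.385 and 0.180); with each library left out they ran from 0.24 to 0.62 for Srd5a1 and Cited2, 0.476 to 0.654 for Srd5a1 and Meis3 and 0.364 to 0.604 for Cited2 and Meis3. Without 12-month silica replicate 3 the relations to the myeloid sum fell to 0.297 (Srd5a1) and 0.296 (Meis3), and Srd5a1 with the endothelial sum passed after median centring (-0.588, adjusted p = 0.0101; 0.0101 to 0.513 over both alternatives).

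Counts of genes called that moved by more than 1.5 times were 65 at 1 month with median centring (44 to 136 over libraries left out), 1 at 12 months with that time fitted alone (195 to 457) and 130 at 18 months fitted alone (112 to 231). The variation of the difference between times gave 5 genes with no filter, 5 without the 1-month groups, 3 without the 3-month or 6-month groups and 89 without the 12-month groups (10 to 78). The difference at 18 months against 1 month gave 1 with no filter and without the 3-month or 6-month groups and 4 without the 12-month groups (1 to 4). The variation in air gave 137 without the 1-month groups. No paired analysis was possible because the labels give no numbers shared between groups, and replicate numbers follow accession order. FPKM carry no counts, so no counting interval can be given for these low genes.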
